A study of Homo sapiens with 12 samples.

Results

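The Rag GTPases *RRAGA*, *RRAGC* and *RRAGD*, the RagA ubiquitin ligase *RNF152*, the folliculin genes *FLCN*, *FNIP1* and *FNIP2*, and the TFE transcription factor genes *TFEB*, *TFE3* and *MITF* were followed in 2 leukemic B-cell lines with high or low *UGT2B17*. These 10 genes were chosen by symbol from the 23533 genes listed for either line, and the choice was made with results known: *RNF152* was selected on its rise of over 20-fold in MEC1-2B17 cells and *RRAGD* on its fall in JVM2-2B17 cells. In those contrasts both genes are therefore described without a test. Of the 10 genes, 10 were listed for MEC1 and 9 for JVM2, where *MITF* was not listed. After the filter on low counts 10 remained in MEC1 and 8 in JVM2, where *RNF152* was too low to be tested.

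Rag GTPases work at the lysosomal surface as heterodimers of RagA or RagB with RagC or RagD, and when amino acids are plentiful they recruit the growth kinase complex mTORC1. RNF152 is a lysosomal E3 ligase that ubiquitinates RagA and dampens this signal, whereas folliculin with FNIP1 or FNIP2 acts on the nucleotide state of RagC and RagD. RagC and RagD also present the TFE factors to mTORC1, which keeps them in the cytoplasm, and TFE factors that escape to the nucleus switch on lysosomal and autophagy genes through CACGTG sites. *RRAGD* itself is a known transcriptional target of TFE factors.

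RNA sequencing covered 4 populations with 3 biological replicates each, and the question was how *UGT2B17*, which encodes a glucuronidating enzyme, alters the transcriptome of malignant B cells. MEC1-2B17 and JVM2-2B17 cells stably carried pcDNA6 with the *UGT2B17* coding sequence and were kept in blasticidin. JVM2-CTRL cells carried empty pcDNA6 and were kept in blasticidin, whereas MEC1-CTRL cells stably carried a knock-down shRNA against *UGT2B17* and were kept in puromycin. In MEC1 the arms thus differed in construct and in antibiotic, and the effect of raised *UGT2B17* cannot be told apart from either. Whether any population was a single clone was not given in the sources used here.

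Libraries held 31762649 to 37744991 counted reads in MEC1 and 8809179 to 11231330 in JVM2, so low genes were measured less precisely in JVM2. *UGT2B17* rose in both lines, from 11 ± 0.691 to 21.1 ± 1.37 CPM (counts scaled to library size; mean ± SD, n = 3, as for every mean here) in MEC1 (log2 fold change 0.94, SE 0.069, adjusted *P* = 2.0e-09) and from 27.8 ± 1.83 to 38.7 ± 5.67 CPM in JVM2 (0.48, SE 0.11, adjusted *P* = 0.0048). Its close UGT2B relatives could share reads with it. The B-cell markers *MS4A1*, *CD79A*, *CD79B*, *PAX5* and *CD22* were present in both lines and moved in mixed directions. In MEC1-2B17 *MS4A1*, *CD79B* and *PAX5* were called lower and *CD79A* and *CD22* higher. In JVM2-2B17 *MS4A1* and *CD22* were called higher, *CD79A* lower, and *CD79B* and *PAX5* were not called. T-cell and myeloid markers summed to at most 1.05 CPM in MEC1 and 1.47 CPM in JVM2, and *CD3D* and *MPO* were listed for neither line. Adjusted *P*-values throughout come from edgeR's quasi-likelihood test with Benjamini-Hochberg adjustment across everything tested in that line, and a call was made at an adjusted *P* below 0.05. Of the genes tested, 41.7% were called in MEC1 (20.0% higher and 21.6% lower in MEC1-2B17) and 29.3% in JVM2 (14.1% higher and 15.3% lower in JVM2-2B17). Calls were therefore common in both lines, and the counts below are given against these shares. The shares are from fits with every library, and none is given for the fits that leave a library out.

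In each line 1 library stood apart from its replicates. The mean chi-square per gene between replicate counts was 8.69 and 8.95 for the pairs with replicate 2 of JVM2-2B17, against 2.29 for the remaining pair, and 8.97 and 7.22 for the pairs with replicate 3 of MEC1-CTRL, against 2.61. Without replicate 2 of JVM2-2B17, 1 member was called in JVM2 as with it, *TFEB* stood at 0.22 on the log2 scale (adjusted *P* = 0.0027), *RRAGD* at -2.82 and *UGT2B17* at 0.35 (adjusted *P* = 0.0014). Without replicate 3 of MEC1-CTRL, 4 members were called in MEC1 as with it, *RRAGD* stood at -0.69, *FNIP2* at 0.78 and *UGT2B17* at 0.91. Over the pathway lists 11 genes were then called higher and 13 lower in JVM2, and 19 higher and 15 lower in MEC1.

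The RefSeq promoter windows of GRCh38.p14, 250 bases before to 50 bases after each annotated start, were available for 7 of the 10 genes, and *RNF152*, *RRAGA* and *RRAGD* had no entry. The E-box CACGTG, a palindrome that reads the same on both strands and forms the core of the site bound by TFE factors, occurred in 7.26% of all promoter windows. The longer palindrome TCACGTGA, which contains it, occurred in 0.98%. Counted by gene, *RRAGC* and *FNIP1*, 2 of the 7 members with a window, held CACGTG, against 8.77% of all genes. No member held TCACGTGA, against 1.18% of all genes. These member counts were not tested. The windows below are shown because they set the members with the site (*RRAGC* and *FNIP1*) beside *FNIP2*, which was called in MEC1 and has none in either of its windows, and beside *RRAGB*, the Rag gene outside the member list, which held the most sites of these genes. Capitals mark CACGTG, or TCACGTGA where the longer form is present.
*RRAGC*, chr1:38859723-38860022, minus strand: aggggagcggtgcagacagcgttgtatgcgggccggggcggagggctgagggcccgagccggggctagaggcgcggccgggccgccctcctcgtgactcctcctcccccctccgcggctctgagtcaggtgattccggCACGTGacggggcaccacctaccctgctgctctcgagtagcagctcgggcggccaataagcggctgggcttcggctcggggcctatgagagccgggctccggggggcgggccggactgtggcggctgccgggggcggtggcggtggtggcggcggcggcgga
*FNIP1*, chr5:131796968-131797267, minus strand: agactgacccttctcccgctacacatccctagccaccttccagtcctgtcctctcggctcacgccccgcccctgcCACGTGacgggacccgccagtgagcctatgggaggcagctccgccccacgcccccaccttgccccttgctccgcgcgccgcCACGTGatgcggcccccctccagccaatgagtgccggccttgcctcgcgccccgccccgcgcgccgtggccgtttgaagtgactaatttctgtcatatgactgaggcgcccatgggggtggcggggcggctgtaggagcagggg
*FNIP2*, first window, chr4:158768776-158769075, plus strand: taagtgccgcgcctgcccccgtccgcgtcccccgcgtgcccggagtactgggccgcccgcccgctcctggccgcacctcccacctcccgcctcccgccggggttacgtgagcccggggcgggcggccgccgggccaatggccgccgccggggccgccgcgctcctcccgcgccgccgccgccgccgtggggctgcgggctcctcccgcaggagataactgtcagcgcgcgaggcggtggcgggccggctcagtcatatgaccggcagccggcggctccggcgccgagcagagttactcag
*RRAGB*, chrX:55717499-55717798, plus strand: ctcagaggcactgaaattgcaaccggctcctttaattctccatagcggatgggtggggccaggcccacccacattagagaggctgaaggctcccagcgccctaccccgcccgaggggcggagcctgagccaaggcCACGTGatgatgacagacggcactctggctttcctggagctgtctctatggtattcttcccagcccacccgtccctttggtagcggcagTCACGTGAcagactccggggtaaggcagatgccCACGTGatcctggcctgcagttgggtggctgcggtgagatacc
The match in *RRAGC* began 112 bases before the start, and those in *FNIP1* began 175 and 94 bases before it. *RRAGB* held 3 matches, of which 1 was the longer form. In the list of lysosomal and autophagy genes known as TFE targets, 9 of the 15 genes with a window held CACGTG in at least 1 window and 5 held TCACGTGA, against 8.77% and 1.18% of all genes counted in that way. The list holds genes known as targets of factors that bind this site, so the higher share may follow from how the list was made. That difference was not tested. A match is a run of letters in these windows, and binding was not measured.

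*RNF152* (ENSG00000176641, chr18:61808067-61894247, minus strand, GRCh38) was higher in all 3 MEC1-2B17 libraries. Its counts were 160, 152 and 121 in MEC1-CTRL and 3070, 2882 and 2849 in MEC1-2B17. The corresponding levels were 4.21, 4.42 and 3.64 CPM against 90.9, 88.3 and 89.9 CPM. The arms were far from overlapping, and replicates of one arm differed little from each other. The level was 21.9-fold higher in MEC1-2B17 (log2 fold change 4.45, SE 0.061, no test), and among the 16581 genes tested in MEC1 *RNF152* ranked 8 by size of rise. The member with the next largest rise in MEC1, *MITF*, stood at 1.84-fold. In bulk RNA a change in the share of cells with a transcript and a change in its amount per cell cannot be told apart.

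In JVM2 *RNF152* was close to the limit of detection. Its counts were 5, 3 and 6 in JVM2-CTRL and 7, 4 and 7 in JVM2-2B17, or 0.472 ± 0.18 and 0.626 ± 0.171 CPM. The arms overlapped and the gene did not pass the count filter, so no fold change was tested. The MEC1-CTRL level, the lower arm of that line, was 4.09 ± 0.399 CPM and thus above every JVM2 library, although each line was scaled on its own.

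*RRAGD* (ENSG00000025039, chr6:89364616-89412273, minus strand), which encodes a RagC-type subunit, was lower in both lines with 2B17. In JVM2 its counts were 971, 1060 and 935 in JVM2-CTRL and 160, 146 and 116 in JVM2-2B17, or 96.7, 98.9 and 99.2 CPM against 14.5, 16.4 and 13.1 CPM. Every JVM2-2B17 library lay far below every JVM2-CTRL library. The level was 6.69-fold lower (log2 fold change -2.74, SE 0.082, no test), and *RRAGD* ranked 152 by size of fall among the 13021 genes tested.

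In MEC1, a contrast that the choice of genes did not use, *RRAGD* fell as well. Counts were 4303, 4025 and 3885 in MEC1-CTRL and 2500, 2316 and 2209 in MEC1-2B17, or 113, 117 and 117 CPM against 74.0, 70.9 and 69.7 CPM. The arms did not overlap, and the fall was 1.62-fold (log2 fold change -0.69, SE 0.036, adjusted *P* = 1.5e-11). The MEC1 change was 2.05 log2 units above that in JVM2 (SE 0.084, no test). The control levels of the lines, 116 ± 2.2 CPM in MEC1-CTRL and 98.3 ± 1.34 CPM in JVM2-CTRL, were of similar height.

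**Figure D1:**
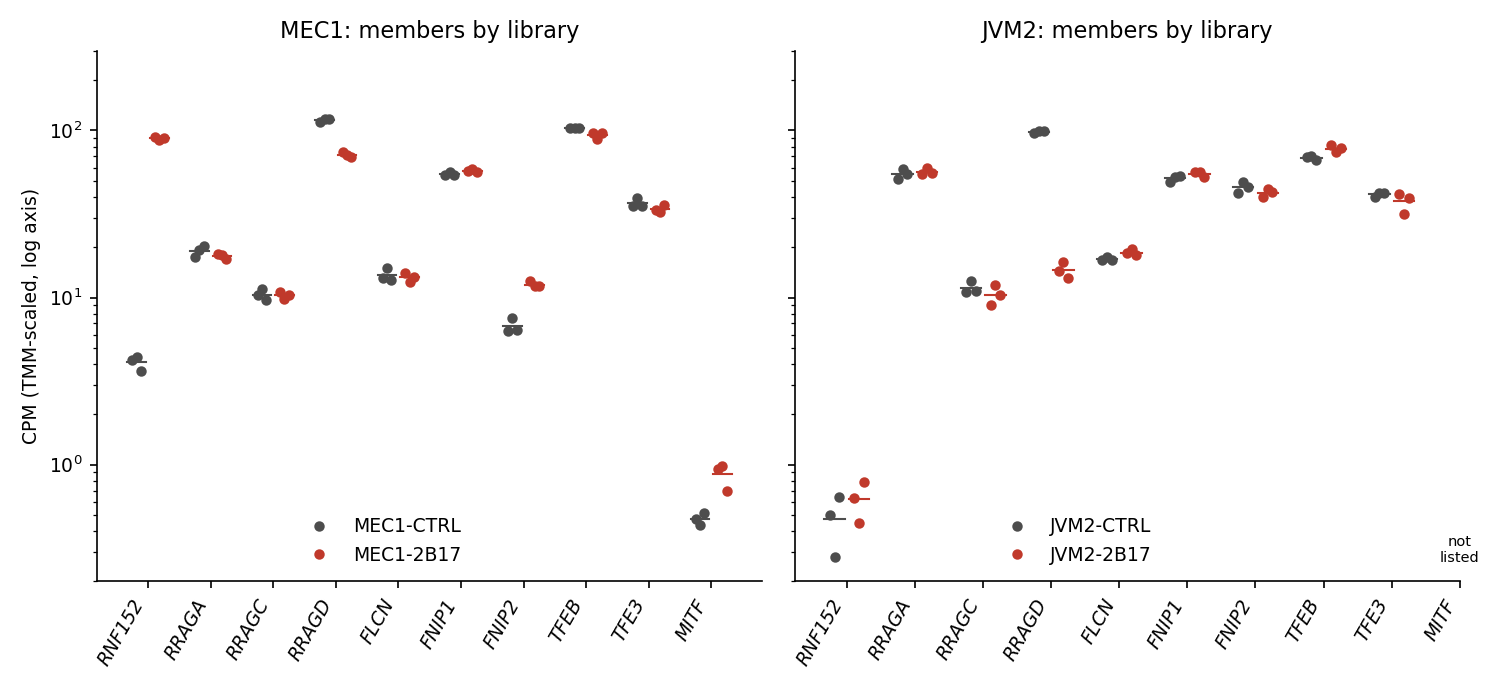
Level of each of the 10 genes in each library, as TMM-scaled CPM on a log axis, in MEC1 (left) and JVM2 (right). Points are the 3 libraries of each population and short lines their means. *RNF152* stands near 4 CPM in MEC1-CTRL and near 90 CPM in MEC1-2B17, *RRAGD* drops from 98.3 to 14.7 CPM in JVM2, and most other genes lie at similar heights in both arms.

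The other Rag genes showed no call among the members. *RRAGA* (ENSG00000155876, chr9:19049427-19051025), which encodes RagA, the substrate of RNF152, had 17.5, 19.2 and 20.3 CPM in MEC1-CTRL and 18.2, 17.9 and 17 CPM in MEC1-2B17. The arms overlapped (log2 fold change -0.10, SE 0.064, adjusted *P* = 0.22). In JVM2 *RRAGA* stood at 54.9 ± 3.73 CPM in JVM2-CTRL and 56.7 ± 2.86 CPM in JVM2-2B17 (0.04, SE 0.073, adjusted *P* = 0.69). *RRAGC* (ENSG00000116954, chr1:38838198-38859772) stood at 10.4 ± 0.744 and 10.3 ± 0.511 CPM in MEC1 (-0.02, SE 0.077, adjusted *P* = 0.87). In JVM2 it stood at 11.4 ± 1.01 and 10.4 ± 1.48 CPM (-0.15, SE 0.13, adjusted *P* = 0.44). Of the *RRAGC* exon bases, 23.1% are shared with an annotated long non-coding RNA on the same strand, so part of its reads cannot be assigned.

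*RRAGB*, the RagA-type paralog outside the member list, was not called in MEC1 (12.2 ± 0.468 and 13.0 ± 0.496 CPM, log2 fold change 0.10, SE 0.067, adjusted *P* = 0.27). In JVM2 it had 13.6, 11.8 and 11.1 CPM in JVM2-CTRL and 14.4, 16 and 15.8 CPM in JVM2-2B17. The arms did not overlap, and the gene rose by 0.34 on the log2 scale (SE 0.11, adjusted *P* = 0.04). DESeq2 gave an adjusted *P* of 0.15, and over all alternatives the value ran from 0.029 to 0.15. The call was lost when replicate 2 or 3 of JVM2-CTRL (0.13 and 0.14) or replicate 2 or 3 of JVM2-2B17 (0.054 and 0.09) was left out. The lines were -0.24 apart (MEC1 minus JVM2, SE 0.12), which was not called (adjusted *P* = 0.16).

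The balance within the RagC-type pair shifted with *RRAGD*. Per kilobase of annotated exon, *RRAGD* made up 90.0, 88.7 and 90.1% of the *RRAGC* plus *RRAGD* level in JVM2-CTRL and 61.9, 58.0 and 56.1% in JVM2-2B17. In MEC1 the same share was 91.8 ± 0.55% in MEC1-CTRL and 87.5 ± 0.453% in MEC1-2B17. Over these full exon lengths *RRAGD* remained the larger transcript of the pair in every library. The *RRAGC* length includes the 23.1% of exon bases shared with another gene. If reads there were left uncounted, the *RRAGC* level is too low, and the order of the pair in JVM2-2B17 is not certain. The share of *RRAGB* in the RagA-type pair was 27.4 ± 2.23 and 30.3 ± 1.04% in MEC1, and 11.6 ± 1.64 and 13.8 ± 0.552% in JVM2. These shares carry the *RRAGD* change that chose the gene and were not tested.

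**Figure D2:**
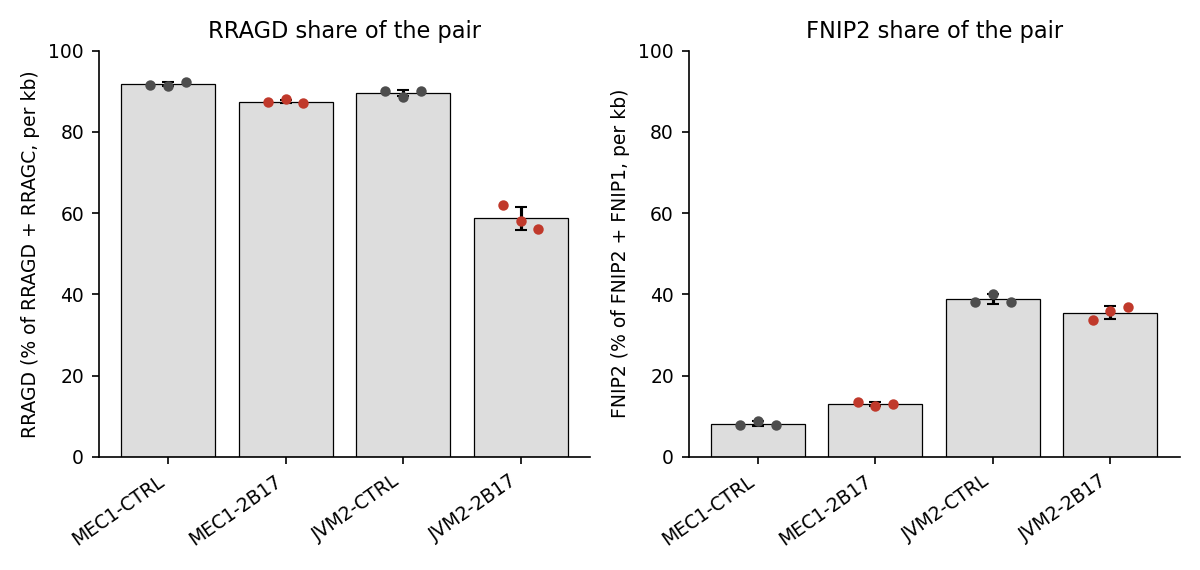
Share of *RRAGD* in the *RRAGC* plus *RRAGD* level (left) and of *FNIP2* in the *FNIP1* plus *FNIP2* level (right), in percent of CPM per kilobase. Bars are means, error bars SD and points the 3 libraries of each population. *RRAGD* falls to 58.7% in JVM2-2B17 and stays at 87.5% or above elsewhere, and *FNIP2* is the minor partner throughout, at 8.13% in MEC1-CTRL and 13.0% in MEC1-2B17.

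Among the folliculin genes, *FNIP2* rose in MEC1. *FNIP2* (ENSG00000052795, chr4:158769026-158908050), which encodes a binding partner of folliculin, had 6.34, 7.58 and 6.36 CPM in MEC1-CTRL and 12.5, 11.7 and 11.7 CPM in MEC1-2B17. The arms did not overlap, and the rise was 1.77-fold (log2 fold change 0.82, SE 0.084, adjusted *P* = 2.1e-07). In JVM2 *FNIP2* had 42.0, 48.9 and 46.0 CPM in JVM2-CTRL and 39.9, 44.4 and 42.7 CPM in JVM2-2B17. Those arms overlapped (-0.11, SE 0.079, adjusted *P* = 0.32). The effect differed between the lines by 0.94 on the log2 scale (SE 0.11, adjusted *P* = 1.8e-06 for the interaction). Even the raised MEC1-2B17 level of 11.9 ± 0.452 CPM was below every JVM2 library.

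*FLCN* and *FNIP1* were not called in either line. *FLCN* (ENSG00000154803, chr17:17212212-17237188), the folliculin gene, stood at 13.6 ± 1.19 and 13.3 ± 0.846 CPM in MEC1 (log2 fold change -0.04, SE 0.075, adjusted *P* = 0.75). In JVM2 it stood at 17.1 ± 0.479 and 18.6 ± 0.691 CPM, with arms that did not overlap (0.13, SE 0.092, adjusted *P* = 0.34). An annotated protein-coding gene on the same strand shares 11.9% of the *FLCN* exon bases. *FNIP1* (ENSG00000217128, chr5:131641714-131797017) stood at 54.8 ± 1.34 and 57.5 ± 0.919 CPM in MEC1, again without overlap (0.07, SE 0.041, adjusted *P* = 0.19), and at 51.8 ± 2.31 and 55.2 ± 2.38 CPM in JVM2 (0.09, SE 0.069, adjusted *P* = 0.34). *FNIP1* thus exceeded *FNIP2* per kilobase in all 4 populations, with an *FNIP2* share of 38.8 ± 1.19% in JVM2-CTRL and 35.5 ± 1.65% in JVM2-2B17.

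Of the TFE factors, *TFEB* was called in both lines, with small changes in opposite directions. *TFEB* (ENSG00000112561, chr6:41683978-41736259), the best known regulator of lysosomal genes, had 103, 104 and 103 CPM in MEC1-CTRL and 96.7, 88.7 and 97.0 CPM in MEC1-2B17. The arms did not overlap and *TFEB* fell by 0.14 on the log2 scale (SE 0.037, adjusted *P* = 0.0063). The call rested on replicate 2 of MEC1-2B17, the lowest library, without which the change was -0.09 and the adjusted *P* 0.05 (range over all alternatives 0.0034 to 0.05). In JVM2 *TFEB* had 69.0, 70.5 and 66.4 CPM in JVM2-CTRL and 81.4, 73.9 and 78.6 CPM in JVM2-2B17, a rise of 0.18 (SE 0.063, adjusted *P* = 0.046). These arms did not overlap either, but DESeq2 gave an adjusted *P* of 0.14, and the range over all alternatives was 0.0027 to 0.16. Without replicate 1, 2 or 3 of JVM2-CTRL the adjusted *P* was 0.096, 0.095 and 0.16, and without replicate 1 or 3 of JVM2-2B17 it was 0.15 and 0.097. The effects in the lines were -0.32 apart (MEC1 minus JVM2, SE 0.072, adjusted *P* = 0.0021 for the interaction), and over its alternatives the adjusted *P* stayed between 2.3e-04 and 0.0097.

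*TFE3* (ENSG00000068323, chrX:49028726-49043410), the close relative of *TFEB*, was not called. It had 36.7 ± 2.39 and 33.8 ± 1.67 CPM in MEC1 (log2 fold change -0.12, SE 0.055, adjusted *P* = 0.10) and 41.5 ± 1.5 and 37.6 ± 5.14 CPM in JVM2 (-0.14, SE 0.096, adjusted *P* = 0.31). In JVM2-2B17 replicate 2 lay low at 31.8 CPM, and the other libraries of that population stood at 41.4 and 39.6 CPM. Without it the change was -0.03 (adjusted *P* = 0.79). *MITF* (ENSG00000187098, chr3:69739456-69968336), the melanocyte lineage member of the family, was at a trace level in MEC1, with counts of 18, 15 and 17 in MEC1-CTRL and 32, 32 and 22 in MEC1-2B17. It rose 1.84-fold (0.88, SE 0.25, adjusted *P* = 0.0072) without overlap of the arms. DESeq2 gave an adjusted *P* of 0.056, the highest among the alternatives, which began at 0.0049.

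*TFEC*, the family member outside the list, showed a larger change than the listed factors in MEC1. It had 5.76, 6.10 and 5.27 CPM in MEC1-CTRL and 1.51, 1.38 and 1.39 CPM in MEC1-2B17. The arms were well apart, and *TFEC* fell 4.0-fold (log2 fold change -2.0, SE 0.13, adjusted *P* = 3.1e-10). In JVM2 its counts were 3, 5 and 6 in JVM2-CTRL and 7, 6 and 0 in JVM2-2B17, too few to test, so the lines were not compared for this gene.

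**Figure D3:**
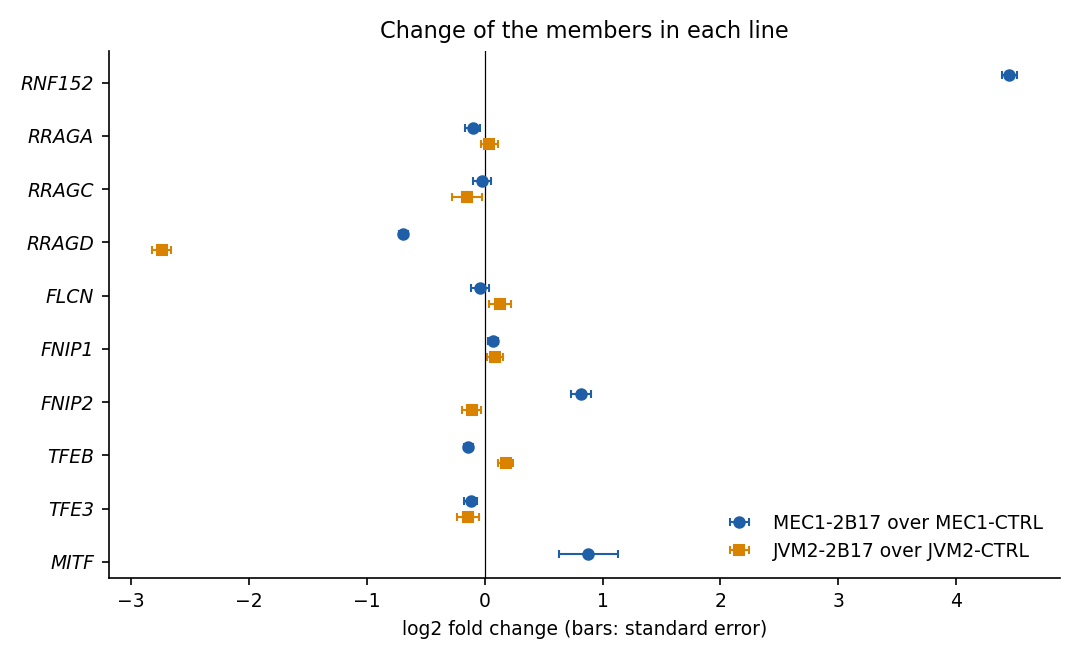
Log2 fold change of each gene, 2B17 over CTRL, with its standard error, in MEC1 (circles) and JVM2 (squares). *RNF152* at 4.45 and *RRAGD* at -2.74 lie far from 0, and *FNIP2* and *MITF* in MEC1 stand at 0.82 and 0.88. *RNF152* and *MITF* have no JVM2 point because they were not tested there.

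Counted over the genes, 4 of the 9 members tested outside the selecting contrast were called in MEC1, 2 higher (*FNIP2* and *MITF*) and 2 lower (*RRAGD* and *TFEB*). That share is near the 41.7% of all genes and is no result about the group. In JVM2, 1 of 7 was called, *TFEB*, which was higher, against 29.3% of all genes by the same edgeR test. The count with DESeq2 was 0, and the share of all genes is not given for DESeq2. No other member reached an unadjusted *P* below 0.05 in JVM2. The arms did not overlap for 5 of the 9 members in MEC1, against 50.1% of all genes tested, and for 2 of the 7 in JVM2, against 45.2%. In the test of the difference between the lines, 2 of 7 members were called, *FNIP2* and *TFEB*, against 32.0% of all genes.

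Levels per kilobase of annotated exon ordered the genes within a population. In MEC1-CTRL the order was *RRAGD* (22.7 ± 0.432 CPM per kilobase), *TFEB* (15.4 ± 0.0755), *RRAGA* (11.9 ± 0.886), *TFE3* (8.72 ± 0.568), *FNIP1* (6.94 ± 0.169), *RRAGC* (2.04 ± 0.145), *FLCN* (1.39 ± 0.122), *FNIP2* (0.615 ± 0.065), *RNF152* (0.4 ± 0.0391) and *MITF* (0.0639 ± 0.00514). Each neighbouring pair in that order was further apart than its SDs added together. In MEC1-2B17 *RNF152* had moved up to 8.78 ± 0.131 CPM per kilobase, between *RRAGA* (11.1 ± 0.367) and *TFE3* (8.04 ± 0.397), and *RRAGD* and *TFEB*, at 14 ± 0.441 and 14 ± 0.697, did not differ beyond their spread. In JVM2-CTRL *RRAGA* led with 34.4 ± 2.33 CPM per kilobase, followed by *RRAGD* with 19.3 ± 0.263, and *TFEB* (10.2 ± 0.308) and *TFE3* (9.86 ± 0.357) lay within their spread. In JVM2-2B17 *RRAGD* had dropped to 2.88 ± 0.327 CPM per kilobase, below *FNIP2* (3.85 ± 0.206) and above *RRAGC* (2.03 ± 0.29). *RRAGC* and *FLCN* (1.91 ± 0.0706) lay within their spread there. Merged exons of all annotated isoforms set the length, so a gene with long rarely used exons is placed too low. The same holds for *RRAGC* and *FLCN* if reads from exon bases shared with another gene were left uncounted.

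The other genes of the pathway were taken from lists by role that hold 80 genes, of which 80 were tested in MEC1 and 79 in JVM2. In MEC1, 18 were called higher and 19 lower, against 20.0% and 21.6% of all genes, with a median log2 fold change of 0.012 against 0.0 over all genes. In JVM2, 11 were called higher and 11 lower, against 14.1% and 15.3%, with a median of -0.035 against 0.0. Of the 79 list genes tested in both lines, 11 were called in both. Of these, 7 had the same direction (*SESN3*, *DEPTOR*, *RHEB*, *ATP6V0A1*, *TCIRG1*, *LAMP1* and *WIPI1*) and 4 the opposite (*MIOS*, *SEH1L*, *ATP6V1G1* and *CTSD*). The share of all genes called in both lines is not given, so these counts are no result about the lists. The MEC1 calls of *RHEB*, *ATP6V0A1*, *WIPI1* and *TCIRG1* and the JVM2 calls of *RHEB*, *WIPI1*, *CTSD* and *MIOS* were lost when at least 1 of the libraries was left out. With DESeq2 *RHEB* and *WIPI1* were called in neither line. The count of lower genes in MEC1 was 12 without replicate 1 of MEC1-CTRL and 11 without replicate 2 of MEC1-2B17. The count of higher genes in JVM2 was 7 without replicate 2 or 3 of JVM2-CTRL. Leaving out a library can lower the calls over all genes too, so such a drop is not particular to these lists.

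Of the Ragulator subunits, which tether the Rag dimer to the lysosome, 3 of 5 were lower and 0 higher in MEC1, where 21.6% of all genes were lower and 20.0% higher. In JVM2, 2 of 5 were higher and 0 lower, against 14.1% and 15.3%. By DESeq2 the counts were 2 lower and 0 higher in MEC1, and 2 higher and 0 lower in JVM2, and no Ragulator gene moved against these directions at an unadjusted *P* below 0.05. *LAMTOR2* had 37.3, 38.0 and 38.1 CPM in MEC1-CTRL and 29.3, 29.2 and 28.4 CPM in MEC1-2B17, a fall of 0.38 on the log2 scale (SE 0.046, adjusted *P* = 1.8e-06). *LAMTOR4* fell by 0.21 (adjusted *P* = 3.0e-04). *LAMTOR1* fell by 0.12 (adjusted *P* = 0.041), a call that DESeq2 (0.095) and 5 of the 6 fits that left out a library did not make, and its range over all alternatives was 0.025 to 0.18. In JVM2 *LAMTOR5* rose from 41.5 ± 1.72 to 54.0 ± 0.873 CPM (0.38, SE 0.068, adjusted *P* = 0.0011), and *LAMTOR3* went from 35.7 ± 1.38 up to 45.0 ± 5.72 CPM (0.33, adjusted *P* = 0.017), a call that was lost without replicate 1 (0.067) or 3 (0.057) of JVM2-CTRL, which left 1 Ragulator gene called.

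GATOR1 is the complex that switches RagA and RagB off, KICSTOR anchors it, and GATOR2 opposes it. In the GATOR1 and KICSTOR list, only *NPRL3* was called, in MEC1 (14.2 ± 0.532 and 16.3 ± 1.46 CPM, log2 fold change 0.21, SE 0.07, adjusted *P* = 0.025), and DESeq2 did not call it (0.054, range over all alternatives 0.0072 to 0.14). The call was also lost without replicate 1 or 3 of MEC1-CTRL or replicate 3 of MEC1-2B17. In MEC1 the calls were thus 1 of 7 genes, against 41.7% of all genes. None of the 7 genes was called in JVM2 by edgeR, against 29.3% of all genes, or by DESeq2, and 1 had an unadjusted *P* below 0.05. Without replicate 3 of JVM2-2B17, 1 was called lower. In the GATOR2 list, 3 of 5 genes were higher and 1 lower in MEC1, against 20.0% and 21.6% of all genes. In JVM2, 1 was higher and 1 lower, against 14.1% and 15.3%, and 2 were lower without replicate 1 of JVM2-2B17. *SEH1L* rose from 57.0 ± 5.25 to 72.7 ± 2.53 CPM in MEC1 (0.35, SE 0.053, adjusted *P* = 2.5e-05) and fell from 61.0 ± 4.09 to 45.0 ± 1.89 CPM in JVM2 (-0.44, SE 0.073, adjusted *P* = 7.0e-04). *MIOS* did the reverse. It fell by 0.20 in MEC1 (SE 0.035, adjusted *P* = 1.4e-04) and rose by 0.25 in JVM2 (SE 0.067, adjusted *P* = 0.015), and the latter call was lost without replicate 1, 2 or 3 of JVM2-CTRL (0.05, 0.053 and 0.055). *WDR59* rose by 0.31 in MEC1 (adjusted *P* = 1.2e-04).

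*SESN3* had the greatest fall of the listed pathway genes in both lines, and *DEPTOR* was next to it in JVM2. *SESN3*, a sestrin that acts on GATOR2, had counts of 259, 245 and 296 in MEC1-CTRL and 63, 49 and 49 in MEC1-2B17, a fall of 4.62-fold (log2 fold change -2.21, SE 0.14, adjusted *P* = 2.7e-10). In JVM2 *SESN3* counts were 22, 39 and 25 in JVM2-CTRL and 5, 1 and 4 in JVM2-2B17 (-2.99, SE 0.41, adjusted *P* = 1.4e-04). This JVM2 value was picked out after its size was seen. *DEPTOR*, an inhibitor bound to mTOR, had 54, 57 and 53 counts in JVM2-CTRL and 5, 8 and 9 in JVM2-2B17, a fall of 6.99-fold (-2.81, SE 0.26, adjusted *P* = 5.7e-06). In MEC1 *DEPTOR* went from 5.61 ± 1.13 to 3.99 ± 0.145 CPM (-0.50, SE 0.13, adjusted *P* = 0.0044). Without replicate 1 of MEC1-CTRL the MEC1 change of *DEPTOR* was -0.32 (adjusted *P* = 0.044). For both genes the libraries of the arms did not overlap in either line, and both calls held under every alternative that tested the gene.

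Other members of these lists changed less. Among the sensors, 1 of 7 was higher and 3 lower in MEC1, against 20.0% and 21.6% of all genes. In JVM2, 1 was higher and 1 lower, against 14.1% and 15.3%. The higher call in MEC1 was lost without replicate 2 of MEC1-CTRL or replicate 1 of MEC1-2B17. *SESN2* fell from 153 ± 9.31 to 114 ± 11.1 CPM in MEC1 (log2 fold change -0.42, SE 0.055, adjusted *P* = 4.0e-06). *BMT2* (also known as *SAMTOR*), the sensor of S-adenosylmethionine, rose by 0.45 in JVM2 (SE 0.11, adjusted *P* = 0.0085). Among the 9 genes of mTORC1, TSC and RHEB, 3 were higher and 2 lower in MEC1, against 20.0% and 21.6% of all genes. In JVM2, 2 were higher and 2 lower, against 14.1% and 15.3%. There 1 was higher without replicate 2 of JVM2-CTRL or replicate 1 of JVM2-2B17. In MEC1 *TSC1* fell by 0.31 (SE 0.042, adjusted *P* = 7.3e-06) and its partner *TSC2* rose by 0.34 (SE 0.048, adjusted *P* = 1.1e-05). In JVM2 the kinase gene *MTOR* fell from 128 ± 2.75 to 93.5 ± 4.07 CPM (-0.46, SE 0.059, adjusted *P* = 9.3e-05), and *TBC1D7*, a further TSC subunit, rose by 0.50 (SE 0.085, adjusted *P* = 8.2e-04).

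The downstream lysosomal lists showed small changes in both directions. Of the 18 V-ATPase subunits, which acidify the lysosome, 3 were higher and 5 lower in MEC1, against 20.0% and 21.6% of all genes. In JVM2, 3 were higher and 2 lower, against 14.1% and 15.3%. In MEC1, 5 were higher without replicate 3 of MEC1-CTRL, 3 were lower without replicate 1 and 2 without replicate 2 of MEC1-CTRL, and 2 were lower without replicate 2 of MEC1-2B17. *ATP6V0A1* fell by 0.52 in JVM2 (SE 0.1, adjusted *P* = 0.0026) and *TCIRG1* by 0.46 (SE 0.092, adjusted *P* = 0.0023), whereas *ATP6V1D* rose by 0.36 (SE 0.073, adjusted *P* = 0.0027). In MEC1 *ATP6V1G1* fell by 0.26 (SE 0.042, adjusted *P* = 5.2e-05) and *ATP6AP2* rose by 0.20 (SE 0.036, adjusted *P* = 1.4e-04). Of the 26 lysosomal and autophagy genes known as TFE targets, 7 were higher and 4 lower in MEC1. The shares over all genes were 20.0% and 21.6%. The median log2 fold change of the list was 0.062, against 0.0 over all genes. In JVM2, 1 was higher and 5 lower, against 14.1% and 15.3%, with a median of -0.067 against 0.0. The lower count in MEC1 was 1 without replicate 1 or 2 of MEC1-CTRL or replicate 2 or 3 of MEC1-2B17, and that in JVM2 was 2 without replicate 1 of JVM2-CTRL. *PSAP*, the precursor of the saposins, rose from 777 ± 10.8 to 1130 ± 21.1 CPM in MEC1 (0.54, SE 0.029, adjusted *P* = 2.9e-11), and *GAA*, the acid alpha-glucosidase gene, rose by 0.33 (SE 0.064, adjusted *P* = 3.3e-04). In JVM2 *CTSF*, which encodes cathepsin F, rose 2.86-fold from a low level (1.59 ± 0.197 to 4.54 ± 0.541 CPM, SE 0.22 on the log2 scale, adjusted *P* = 2.1e-04), and *CTSA*, the protective protein of lysosomal hydrolases, fell by 0.47 (SE 0.084, adjusted *P* = 0.0012).

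**Figure D4:**
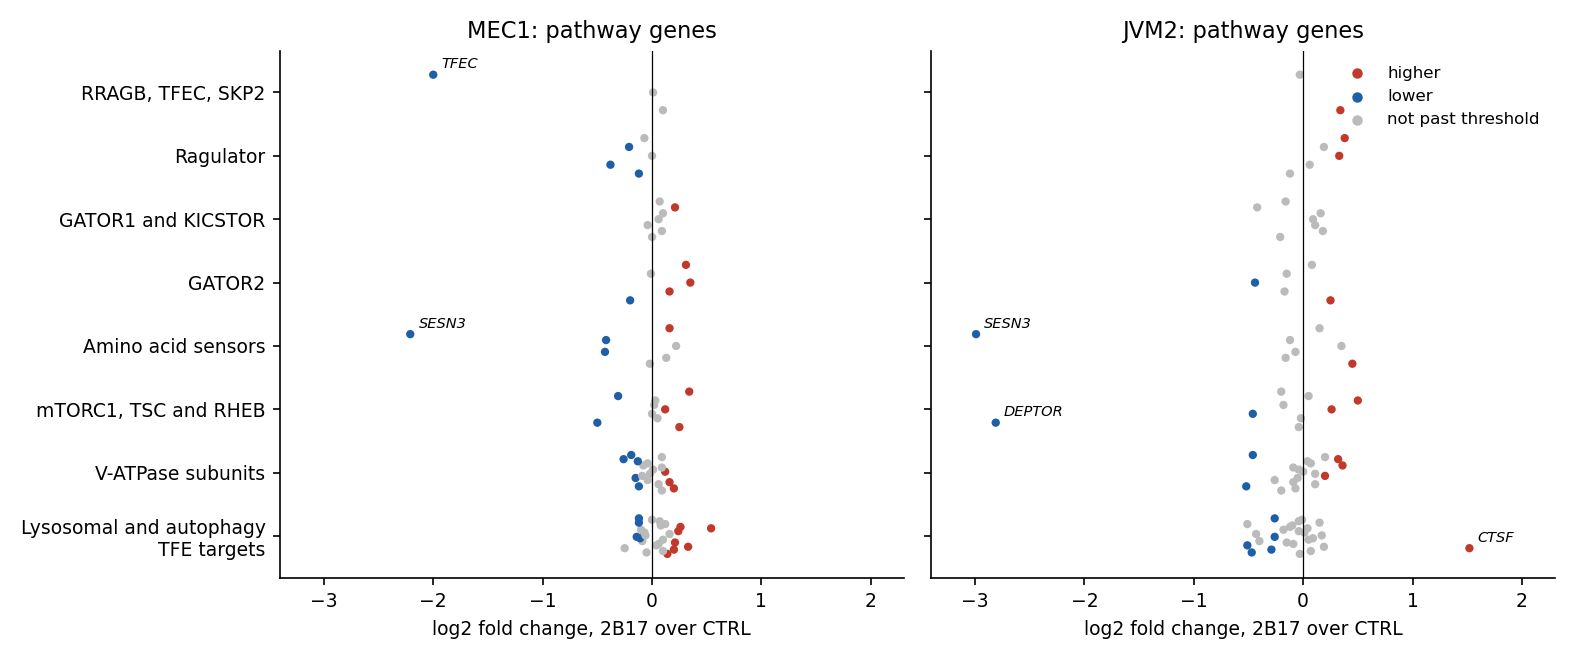
Log2 fold change of every tested pathway gene by list, 2B17 over CTRL, in MEC1 (left) and JVM2 (right). Red points were called higher, blue points lower, and grey points were not past an adjusted *P* of 0.05. Most genes lie within 0.5 of zero, while *SESN3* (-2.21 and -2.99), *DEPTOR* in JVM2 (-2.81), *TFEC* in MEC1 (-2.0) and *CTSF* in JVM2 (1.52) stand apart.

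The genes tested within 1 Mb of *RNF152* and *RRAGD* did not move on the scale of these genes. Near the *RNF152* start, 7 genes were tested in MEC1. Their log2 fold changes ran from -0.37 to 0.52 beside 4.45 for *RNF152*. All 7 start at higher coordinates, the nearest 293 kb away, so genes closer by were not covered. The ends of the range were the uncalled *RP11-120K19.3* and *RP11-173A16.2*, at 0.604 and 0.774 CPM in MEC1-CTRL. Of the 7 genes, 2 were called higher and 1 lower, against 20.0% and 21.6% of all genes, none by more than 1 on the log2 scale. Around *RRAGD*, 8 genes were tested in JVM2, and their changes ran from -0.56 to 0.47 beside -2.74 for *RRAGD*. Of these, 1 was called higher and 3 lower, against 14.1% and 15.3% of all genes, again none by more than 1. The lowest was *UBE2J1* (-0.56, SE 0.054, adjusted *P* = 8.0e-06), the nearest gene tested, with starts 59.6 kb apart. In MEC1 the 11 genes tested around *RRAGD* ran from -0.29 to 0.37, beside -0.69 for *RRAGD*.

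**Figure D5:**
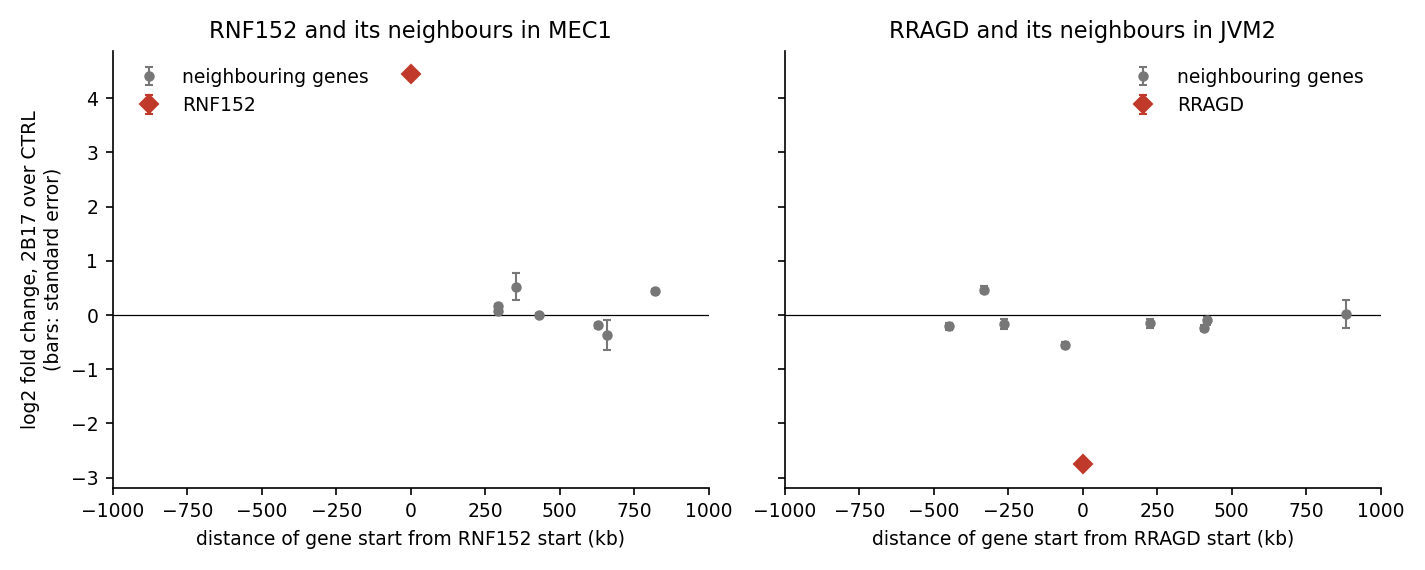
Log2 fold change of the genes within 1 Mb of *RNF152* in MEC1 (left) and of *RRAGD* in JVM2 (right) by the distance of their starts in kilobases. Positive distances lie toward higher coordinates and error bars are standard errors. Neighbours stay between -0.56 and 0.52, with *RNF152* at 4.45 and *RRAGD* at -2.74.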

How the data were processed

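Total RNA from 3 biological replicates of each population went through ribosomal RNA depletion and paired-end HiSeq2000 sequencing at either of 2 sites, which are not given per sample. Per the labels and the study's methods, the authors trimmed reads with Trimmomatic, aligned them to hg38 with TopHat2 2.0.14 and counted them per Ensembl gene with HTSeq. The authors deposited raw counts, not normalized, in a table per line. No gene in either table had fewer than 10 counts over its 6 libraries. The strand setting of the counting is not given in the sources used here. The same tables hold values that were not used here. These are a score for each library that the authors made by normalizing counts and rounding them, and the authors' own log2 fold changes and p-values.

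Counts were scaled by TMM and filtered with filterByExpr (minimum count 10, minimum total 15). The arms were compared in each line with the quasi-likelihood F-test of edgeR 4.0.16 (R 4.3.3) and Benjamini-Hochberg adjustment. The lines were compared by the line by arm interaction over 12 libraries. SE is the absolute log2 fold change divided by the square root of F. Positions are from GENCODE (GRCh38). DESeq2 1.42.0, other scalings and filters, a replicate block and leaving out each library were alternatives. The pipeline was tested on simulated data with far fewer changed genes than were called here and the same dispersion for every gene. That run does not cover scaling or error rates when so many genes change. The genes, lists and tests were chosen with earlier results of these data known. From each list, up to 3 called genes with the largest change and an average log2 CPM of at least 1 could be named per line. *P*-values measure the spread between these replicates. Part of the B-cell marker list is not reported here.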

Additional observations from a re-analysis of the deposited data

Results flagged for a closer look

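The effect of 2B17 differed between the lines for 2 of the 7 members tested, by the edgeR interaction test over all genes. Of all genes tested, 32.0% were called in the same way, so the count is no result about the group. The differences, MEC1 minus JVM2 on the log2 scale, were 0.94 for *FNIP2* (adjusted *P* = 1.8e-06) and -0.32 for *TFEB* (adjusted *P* = 0.0021). *SEH1L* (0.80), *MIOS* (-0.45), *ATP6V1G1* (-0.57) and *CTSD* (0.50) were picked out because they were called in opposite directions in these same libraries, so their differences are given as a description with no test. The control arms were made differently in the lines, so a difference between lines cannot be told apart from a difference in the controls.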

How the results depend on the processing

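The count of 4 members called in MEC1 was 3 with DESeq2 and ran from 3 to 4 when a library was left out. The shares of all genes stated above are from edgeR with every library. They do not apply to the DESeq2 counts or to the counts with a library left out. The count of 1 member called in JVM2 (*TFEB*) was 0 with DESeq2 and 0 when both DESeq2 and the edgeR exact test had to call it, and ran from 0 to 1 when a library was left out. The interaction count stayed at 2 in every alternative run. Over all pathway lists, the 19 lower calls in MEC1 ran from 11 (without replicate 2 of MEC1-2B17) to 17, with 12 without replicate 1 of MEC1-CTRL, and the 18 higher calls from 13 to 19. In JVM2 the 11 higher calls ran from 7 (without replicate 2 or 3 of JVM2-CTRL) to 11, and the 11 lower calls from 8 to 14. No value of a called gene changed sign in any alternative run. The main fits did not pair libraries by replicate number. Deviations of same-numbered libraries correlated at -0.141, -0.0864 and 0.0955 in MEC1 and at 0.108, 0.127 and -0.0152 in JVM2. Those of different-numbered libraries ran from -0.107 to 0.207 in MEC1 and from -0.131 to 0.069 in JVM2. Whether the numbers pair the samples was not tested. With a replicate block, 4 members were called in MEC1, 1 in JVM2 and 2 in the interaction, and of the genes named in the text *LAMTOR1* (adjusted *P* 0.054) and *RHEB* (0.052) lost their MEC1 call. *RHEB*, *WIPI1* and *ATP6V0A1* also lost their MEC1 calls with DESeq2 (0.077, 0.094 and 0.067), and *RHEB* and *WIPI1* lost their JVM2 calls too (0.065 and 0.055). *RNF152* and *TFEC* did not pass the filter in JVM2, where depth was lower than in MEC1. Their levels were lower there as well, at 0.472 and 0.467 CPM in JVM2-CTRL against 4.09 and 5.71 CPM in MEC1-CTRL. The part played by depth was not tested.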

Other observations

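Over the 12 libraries, 14834 genes tested in MEC1 were compared with *RNF152* by log2 CPM. The closest were *PLEK* (Pearson's r 0.99), *EEF2* (0.986) and *CTSC* (0.986). For *RRAGD*, among 12589 genes tested in JVM2, they were *ZC3H12C* (0.982), *CD28* (0.982) and *APOL6* (0.979). The 12 points fall into 4 populations and the lines differ in depth, so these values describe the likeness of the population means. They carry the changes that chose *RNF152* and *RRAGD*, and no test was made. The size of a change does not enter r: mean log2 CPM of *PLEK* was 9.0 in MEC1-CTRL and 9.66 in MEC1-2B17, beside a log2 fold change of 4.45 for *RNF152*. *CTSC*, which encodes the lysosomal protease cathepsin C, had mean log2 CPM of 9.05 in MEC1-CTRL, 9.80 in MEC1-2B17, 8.32 in JVM2-CTRL and 8.54 in JVM2-2B17. *CD28* had 2.87, 1.22, 1.62 and -3.49 in the same order. A prior count of 2 entered each log2 CPM, so the JVM2-2B17 value of *CD28* may lie at the floor this sets.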
